A study of Mus musculus with 6 samples.

Results

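AP-1 transcription factors were followed through 10 genes, chosen by symbol in the count table: Fos, Fosb, Fosl1, Fosl2, Jun, Junb, Jund, Atf3, Maff and Mafk. All 10 were among the 56734 gene symbols of the table, and all 10 were among the 17718 genes with enough counts to be tested. The data were 6 libraries of poly(A)-enriched RNA from B16-OVA, a mouse melanoma line engineered to express ovalbumin as a model antigen. The groups were 3 libraries of WT cells, whose sample titles carry the tag gNC, and 3 libraries of Ythdf2-KO cells, in which Ythdf2 was knocked out and whose titles carry gY2. Both groups were cultured cells of the same line in the same serum-containing medium. The meaning of gNC, and whether the knockout is 1 clone, are not stated in the sources used here.

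AP-1 is a dimer of proteins with a basic leucine zipper (bZIP), typically a JUN protein with a FOS or ATF protein, that binds the sequence TGANTCA and its relatives. Several of its genes are immediate-early genes: growth factors, serum and stress switch them on through MAP kinases without new protein synthesis, and their mRNAs decay quickly. JUN proteins can pair with each other, whereas FOS proteins need a JUN partner. The small MAF proteins share the zipper but lack an activation domain and pair mainly with CNC and BACH proteins. In melanoma, AP-1, with FOSL1 and JUN prominent, is known from dedifferentiated, invasive cell states. YTHDF2 is a cytoplasmic reader of N6-methyladenosine (m6A) that promotes the decay of the mRNAs it binds.

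The libraries held 55660473 to 69497273 counts. Mitochondrial genes took 1.08 to 1.33% of the counts in the WT libraries, against 1.57 to 1.82% in Ythdf2-KO, without overlap, and the part of this in the AP-1 changes was not tested. Ythdf2 mRNA itself was lower in each Ythdf2-KO library, with 100.1, 101 and 104 TMM-scaled CPM (counts scaled to a library of 1e+06) against 124, 124 and 125 in the WT libraries. Gene-level counts do not show the edited sequence or the protein. Of all tested genes, 49.9% were called at an adjusted p under 0.05, with 4270 up and 4569 down in Ythdf2-KO. All 7 defining markers of the melanocyte lineage examined (Tyr, Tyrp1, Dct, Pmel, Mlana, Mitf and Sox10) were detected in every library, and all 7 rose in Ythdf2-KO (median log2 fold change 2.72). Their summed level was 237 to 241 CPM in the WT libraries, against 1401 to 1431 CPM in Ythdf2-KO, and its part in the AP-1 changes was not tested. Whether the replicates were separate cultures is not stated, so p-values measure the spread between these libraries, which may be technical. In bulk RNA, a change in how many cells express a gene and a change in RNA per cell cannot be told apart.

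The promoters of the members that moved most are shown because known inputs of the immediate-early genes act at promoters. Some of these inputs may act beyond the bases shown. RefSeq promoters (GRCm38.p6, an older build than the GRCm39 of the counts) were matched by symbol for 9 of the 10 members, all but Fosl1. Each sequence is the 250 bases before the start site. Capitals mark matches to the motifs named after them.
Fos promoter, chr12:85473640-85473889, plus strand: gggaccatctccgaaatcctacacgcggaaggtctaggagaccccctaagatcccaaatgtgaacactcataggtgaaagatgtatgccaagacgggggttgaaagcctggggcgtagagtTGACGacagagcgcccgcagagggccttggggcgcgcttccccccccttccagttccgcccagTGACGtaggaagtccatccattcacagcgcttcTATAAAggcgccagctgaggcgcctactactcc
Fosb promoter, chr7:19310046-19310295, minus strand: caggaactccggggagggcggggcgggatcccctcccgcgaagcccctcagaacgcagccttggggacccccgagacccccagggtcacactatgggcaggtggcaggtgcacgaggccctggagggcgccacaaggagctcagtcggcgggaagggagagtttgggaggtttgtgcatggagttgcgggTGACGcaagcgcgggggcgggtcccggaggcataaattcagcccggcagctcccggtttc
Maff promoter, the second of 3 entries, chr15:79347270-79347519, plus strand: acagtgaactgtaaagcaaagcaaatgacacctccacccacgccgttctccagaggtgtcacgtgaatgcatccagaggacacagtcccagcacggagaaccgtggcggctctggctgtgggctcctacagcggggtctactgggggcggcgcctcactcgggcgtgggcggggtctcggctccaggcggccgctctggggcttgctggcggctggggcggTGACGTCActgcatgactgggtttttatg

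The core of the cAMP response element, TGACG, was searched on both strands and lay in the promoters of 6 of the 9 matched members (any entry of Maff), against 17.8% of 32851 RefSeq promoters of that length. It began 129 and 66 bases before the start site of Fos and 60 bases before that of Fosb. The Maff entry shown held the palindrome of 2 overlapping copies, which also matches TGACNTCA, 29 to 22 bases before the start. Of the other Maff entries, the first matched none of the motifs searched. The third held TGACNTCA 45 to 38 bases and TGACG 122 to 118 bases before its start. TGACNTCA was in the promoters of 2 of 9 members, Jun and Maff, against 7.49% of all promoters, and in Jun it lay 45 to 38 bases before the start. The TATA sequence TATAAA was in that of Fos alone among the 9, beginning 33 bases before the start, against 12.4% of all promoters. The AP-1 site TGANTCA (6.75% of all promoters) and the CArG box that binds the serum response factor (1.47%) were in none of these windows. Bases farther upstream were not searched, so this does not show that Fos or another matched member lacks either site. The motifs were chosen with the sequences in view, and a match is a description of letters, not of a factor bound.

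Across the 10 members, 5 were higher and 4 were lower in Ythdf2-KO by edgeR's quasi-likelihood test at an adjusted p under 0.05, and Atf3 did not pass. Against these 5 and 4 of 10 stood 24.1% of all tested genes called higher and 25.8% called lower. Calls were more frequent among abundant genes: 65.0% of the tested genes with a mean of at least 5 CPM were called in either direction, and 9 of the 10 members were in that range. The genotypes' libraries did not overlap for 9 of 10 members, against 55.9% of all tested genes. The median log2 fold change was 0.14 over the members and -0.0053 over all tested genes. Most of the 9 changes were small. Fos and Fosb were at least 2-fold higher, as were 6.16% of tested genes, and Maff was the member at least 1.5-fold lower, as were 5.89%.

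**Figure D1:**
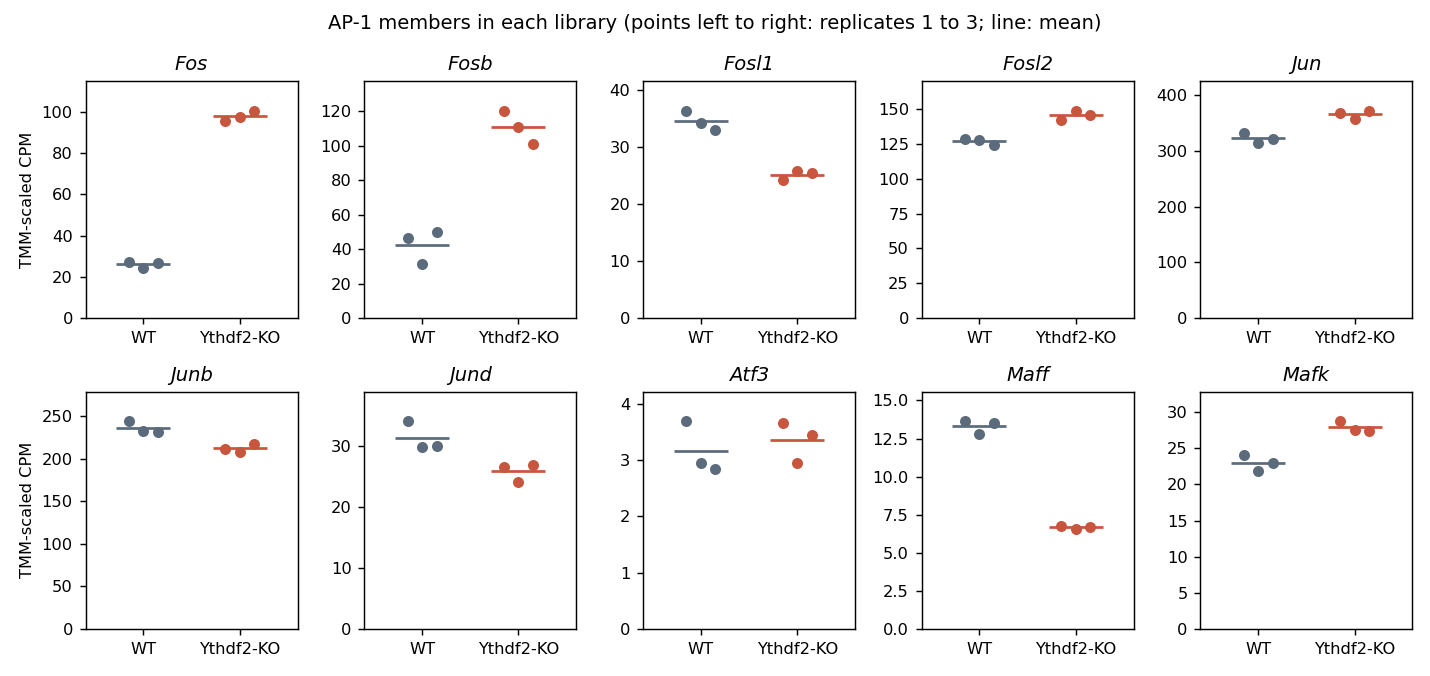
TMM-scaled CPM (vertical axis, from 0) of each of the 10 AP-1 members in the 3 WT and 3 Ythdf2-KO libraries; points are replicates 1 to 3 from left to right and lines are means. Fos and Fosb sit well above WT in every Ythdf2-KO library, Maff sits well below, and the points of Atf3 overlap.

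Fos encodes the archetypal FOS protein and had the largest change among the members. WT replicates 1 to 3 held 27.4, 24.3 and 26.6 CPM, and Ythdf2-KO replicates 1 to 3 held 95.8, 97.3 and 100.6 CPM. Every Ythdf2-KO library was far above every WT library. The log2 fold change was 1.91 ± 0.038 (SE; n = 3 libraries a group; edgeR's adjusted p = 4.31e-37), a 3.75-fold rise, and 521 of the tested genes rose by more.

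Fosb encodes a FOS paralog whose short splice form is an unusually stable protein. The WT libraries held 46.8, 31.4 and 49.8 CPM, and the Ythdf2-KO libraries 120.2, 110.8 and 100.8 CPM. The groups did not overlap, but the WT libraries were spread more widely than for any other member called, with replicate 2 the lowest. The rise was 2.59-fold, with a log2 fold change of 1.38 ± 0.20 (SE; n = 3 libraries a group; edgeR's adjusted p = 0.00506). Its 95% interval ran from 0.83 to 1.92. Without WT replicate 2 the log2 fold change was 1.20 (edgeR adjusted p = 0.00262).

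The FOS-related antigens, which lack the strong activation domain of FOS, went opposite ways. Fosl1, which encodes FRA1, had 36.3, 34.1 and 32.9 CPM in the WT libraries, against 24.3, 25.8 and 25.4 CPM in the Ythdf2-KO libraries. All 3 Ythdf2-KO libraries were below all 3 WT libraries. The log2 fold change was -0.45 ± 0.047 (SE; n = 3 libraries a group; edgeR's adjusted p = 2.51e-11), a 1.37-fold fall. Fosl2, which encodes FRA2, had 129, 128 and 124 CPM in the WT libraries, against 142, 149 and 146 CPM in those of Ythdf2-KO. It rose 1.15-fold without overlap (log2 fold change 0.20 ± 0.026, SE; n = 3 libraries a group; edgeR's adjusted p = 7.77e-09).

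The JUN genes moved little. Jun, which encodes c-JUN, the main target of the JUN N-terminal kinases, had 332, 314 and 322 CPM in the WT libraries, against 367, 358 and 372 CPM in the Ythdf2-KO libraries. The libraries did not overlap, and the rise was 1.13-fold (log2 fold change 0.18 ± 0.023, SE; n = 3 libraries a group; edgeR's adjusted p = 3.47e-09). Junb, whose protein is a weaker activator that can restrain c-JUN, had 244, 233 and 232 CPM in the WT libraries, against 212, 208 and 218 CPM in the Ythdf2-KO libraries. Each Ythdf2-KO library was below each WT library, a 1.11-fold fall (log2 fold change -0.15 ± 0.024, SE; n = 3 libraries a group; edgeR's adjusted p = 5.61e-07). Jund, which is expressed more steadily than its paralogs in many cells, had 34.0, 29.8 and 30.0 CPM in the WT libraries, against 26.6, 24.03 and 26.9 CPM in the Ythdf2-KO libraries. It fell 1.21-fold without overlap (log2 fold change -0.27 ± 0.052, SE; n = 3 libraries a group; edgeR's adjusted p = 3.02e-05).

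Atf3, a stress-induced ATF gene whose product pairs with JUN proteins, was the least abundant member. The WT libraries held 3.69, 2.95 and 2.85 CPM and the Ythdf2-KO libraries 3.66, 2.95 and 3.45 CPM, resting on 182 to 250 counts a library. The groups overlapped. The log2 fold change of 0.092 ± 0.14 (SE; n = 3 libraries a group) did not pass (edgeR adjusted p = 0.622), and its 95% interval, -0.19 to 0.37, leaves room for a change as large as that of Mafk.

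The small MAF genes diverged. Maff had 13.6, 12.8 and 13.5 CPM in the WT libraries, against 6.75, 6.54 and 6.71 CPM in the Ythdf2-KO libraries, so the libraries of each genotype lay close together and far from those of the other. It fell 1.996-fold (log2 fold change -0.997 ± 0.077, SE; n = 3 libraries a group; edgeR's adjusted p = 3.10e-15), and 674 tested genes fell by more. Mafk had 24.1, 21.8 and 23.01 CPM in the WT libraries, against 28.7, 27.5 and 27.5 CPM in the Ythdf2-KO libraries. It rose 1.22-fold without overlap (log2 fold change 0.28 ± 0.050, SE; n = 3 libraries a group; edgeR's adjusted p = 5.61e-06). Their paralog Mafg, from the wider bZIP list and named after its values were seen, fell from 106 ± 3.88 to 91.2 ± 0.854 CPM (SD, n = 3).

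**Figure D2:**
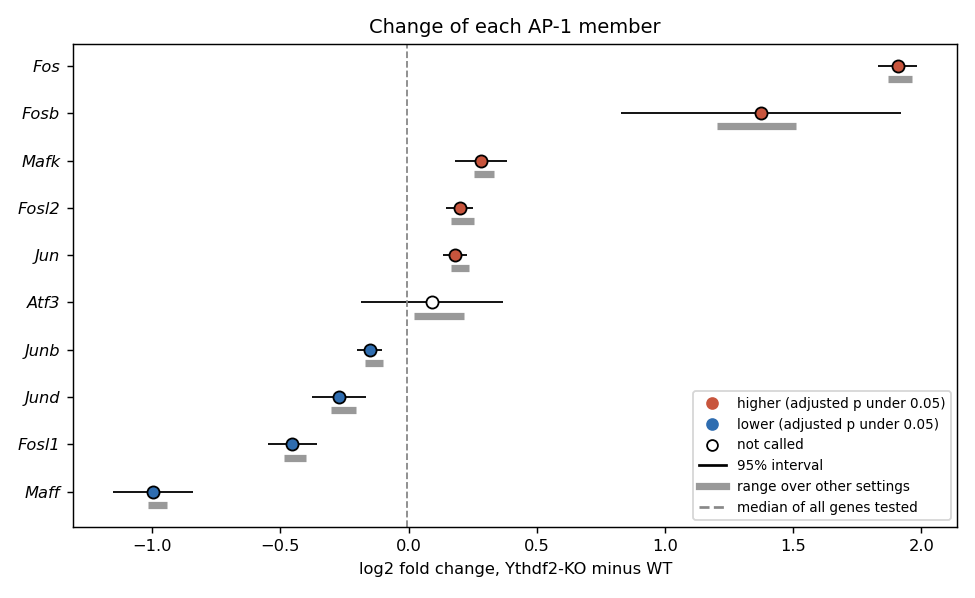
Log2 fold change of each member, Ythdf2-KO minus WT (horizontal axis): points are the edgeR estimates, black lines their 95% intervals, grey bars the range over the other settings tried, and the dashed line the median of all tested genes, -0.0053. Fos at 1.91 and Fosb at 1.38 stand apart from the other risers, which lie at 0.28 or less, and Maff lies lowest at -0.997.

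Some members overlap a gene on the opposite strand, and whether the counting used strand is not stated in the sources used here. In the GENCODE annotation of GRCm38 these partners were Ccdc85b for Fosl1, Junos for Jun, Prdx2 for Junb, Gm11175 for Jund, Tmem184a for Mafk and Gm24748 for Atf3. Junos had 296 to 395 counts a library, against 18426 to 25754 for Jun. Prdx2 had 9058 to 12110 counts and Ccdc85b 2952 to 3900, as many as or more than Fosl1, so reads shared with these partners cannot be told apart for Junb and Fosl1. Fos, Fosb, Fosl2 and Maff had no such partner there.

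Levels of different members were compared per kilobase of each gene's longest GENCODE transcript (CPM per kb), as a description with no test. In WT, Junb was highest at 131 ± 3.77 CPM per kb (SD, n = 3), followed by Jun at 101 ± 2.84. Fosl2, Jund and Fosl1 followed at 19.4 ± 0.392, 18.7 ± 1.43 and 18.5 ± 0.937, and their libraries overlapped. Fos and Fosb, at 12.4 ± 0.748 and 11.3 ± 2.60, also overlapped. Mafk at 7.42 ± 0.374, Maff at 6.80 ± 0.231 and Atf3 at 1.59 ± 0.232 came last. In Ythdf2-KO the order of the FOS genes differed: Fos stood at 46.4 ± 1.16 CPM per kb and Fosb at 29.2 ± 2.57, both above Fosl2 at 22.3 ± 0.517. Fosl1 at 13.5 ± 0.421 and Jund at 15.5 ± 0.941 did not overlap there. Junb and Jun, at 118 ± 2.74 and 115 ± 2.26, overlapped in Ythdf2-KO. The order of these 2 genes depended on the length taken. With the union of exons as length, Junb and Jun had means of 103 and 101 in WT. In Ythdf2-KO, Jun then led at 115, against 92.4 for Junb.

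The makeup of the FOS family differed between the genotypes in these libraries. Fos made up 20.1, 20.02 and 20.2% of the length-scaled FOS-family level in WT replicates 1 to 3, against 40.6, 41.2 and 43.3% in the Ythdf2-KO replicates. The share of Fosb was 19.2, 14.4 and 21.1% in the WT libraries, against 28.4, 26.2 and 24.2% in those of Ythdf2-KO. Fosl1 went from 30.2, 31.7 and 28.3% to 11.6, 12.3 and 12.4%, and Fosl2 from 30.5, 33.8 and 30.4% to 19.4, 20.3 and 20.2%. For each of the 4 genes the shares of the genotypes did not overlap. These shares do not depend on how libraries are scaled to each other, but they do depend on the transcript length taken for each gene. With the union of exons as length, Fosb made up 14.2% in WT and 20.4% in Ythdf2-KO. Summed over the family, the level was 61.5 ± 3.50 CPM per kb in WT and 111 ± 0.980 in Ythdf2-KO (SD, n = 3), a ratio of 1.81.

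The JUN family shifted far less. Jun made up 40.4 ± 0.423% of its length-scaled level in WT and 46.3 ± 0.198% in Ythdf2-KO, Junb 52.2 ± 0.369 and 47.5 ± 0.220%, and Jund 7.48 ± 0.335 and 6.25 ± 0.250% (SD, n = 3). These shares also depend on the transcript length taken, and with the union of exons Jun exceeded Junb in Ythdf2-KO. The summed level was 250.5 ± 7.79 CPM per kb in WT and 248 ± 5.83 in Ythdf2-KO, with overlapping libraries and a ratio of 0.989. The summed JUN level thus exceeded the summed FOS level in every library of both genotypes.

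**Figure D3:**
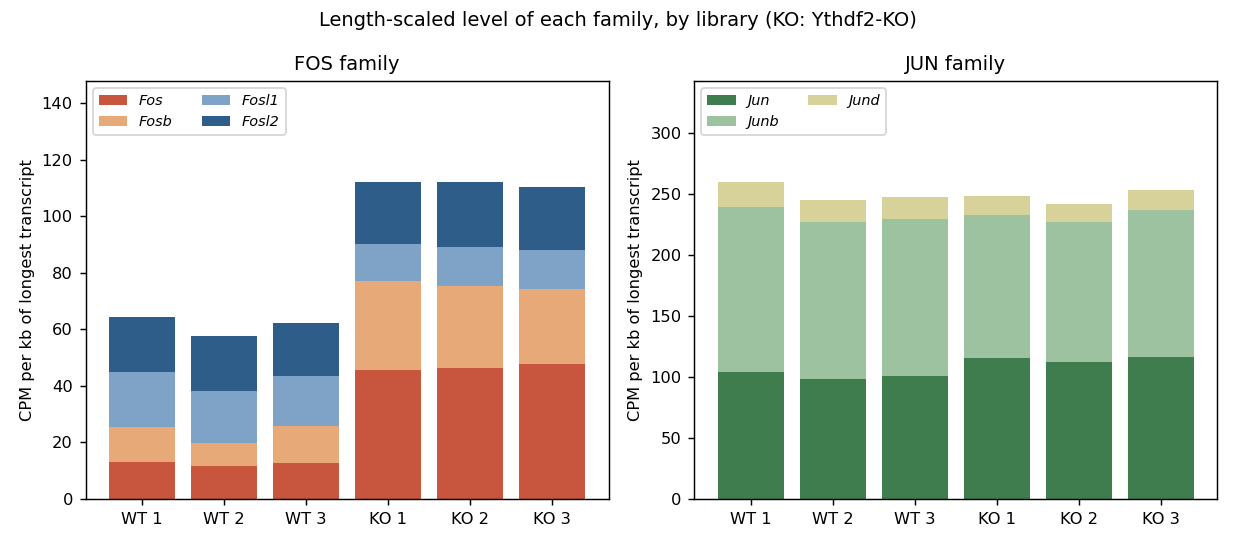
Stacked level of the FOS-family genes (left) and JUN-family genes (right) in each library, in CPM per kb of the longest transcript, with KO standing for Ythdf2-KO. The FOS stack rises from a mean of 61.5 in WT to 111 in Ythdf2-KO, mostly through Fos and Fosb, while the JUN stack stays between 242 and 259 in all 6 libraries.

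Features of the members' mRNAs were read from the longest coding GENCODE transcript. GGACT, a frequent form of the m6A consensus, occurred in 9 of the 10 members' transcripts and not in that of Fosl1. It occurred 4 times in Fos, or 1.90 per kb, and 3 times in Maff, or 1.53 per kb, against a median of 1.05 per kb over 13012 tested genes. The lower quartile of those genes was 0.642 per kb, so most of them carried GGACT as well. ATTTA, the core of AU-rich elements that mark short-lived mRNAs, occurred in the 3' UTR of all 10. Fos had 4 copies in 818 bases (4.89 per kb), Maff 4 copies in 1224 bases (3.27 per kb) and Fosb 1 copy in 2148 bases (0.466 per kb). The median over the same tested genes was 1 copy, or 1.25 per kb when scaled by 3' UTR length. Neither count separated the members that rose from those that fell: per kb, GGACT ranged from 0.323 to 2.195 among the 5 that rose and from 0 to 2.40 among the 4 that fell. Methylation was not measured in these libraries.

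Other immediate-early genes, from a list of 18, were mostly higher: 11 rose and 3 fell, against 24.1% and 25.8% of all tested genes, and the median log2 fold change was 0.43. Ccn2 and Ccn1, which encode matricellular proteins, rose 5.36-fold to 1.17 ± 0.0966 CPM and 3.08-fold to 695 ± 11.99 CPM (SD, n = 3). Dusp1, which encodes a phosphatase that inactivates MAP kinases, rose 2.82-fold to 60.6 ± 2.02 CPM. The 3 that fell, named after their values were seen, were Ier3 (2.73-fold), Gadd45b (1.57-fold) and Ier5 (1.10-fold). WT replicate 2 had the lowest WT level of Fos and Fosb, and it also had the lowest of Egr1 (133 CPM against 163 and 161) and of Ccn1 (197 CPM against 243 and 237). Egr1, the zinc-finger gene induced alongside Fos and named here after its values were seen, was at 325 to 334 CPM in Ythdf2-KO, above all WT libraries. Of 3 tested heat-shock genes read as signs of handling, Hspa1b and Hsph1 rose 1.60- and 1.59-fold and Dnajb1 fell 1.10-fold. The summed level of that list was 410.4 to 411 CPM in the WT libraries, against 572 to 582 CPM in Ythdf2-KO, and its part in the AP-1 changes was not tested.

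Textbook AP-1 target genes went largely the other way from Fos. Of 24 tested of a list of 26, 19 fell and 3 rose, against 25.8% and 24.1% of all tested genes, and the median log2 fold change was -0.74. Mmp3, which encodes the matrix protease stromelysin 1, fell 15.1-fold, from 83.4 ± 0.841 to 5.53 ± 0.405 CPM (SD, n = 3). Its relative Mmp10 fell from 465 counts over the WT libraries to 18 over the Ythdf2-KO libraries, a ratio of 27.2 (95% counting interval 17.0 to 46.2). Il6 fell from 281 counts to 6, all of them in Ythdf2-KO replicate 1, a ratio of 49.2 (interval 22.3 to 135), and without that library it was at least 32.4-fold lower against a floor of 3 counts per library. The 3 that rose, named after their values were seen, were the integrin gene Itgb3 (3.74-fold), Hbegf (1.19-fold) and Ccnd1 (1.04-fold). Many of these genes also answer to NF-kappaB and other factors, and the list was drawn up with earlier results of these data known.

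**Figure D4:**
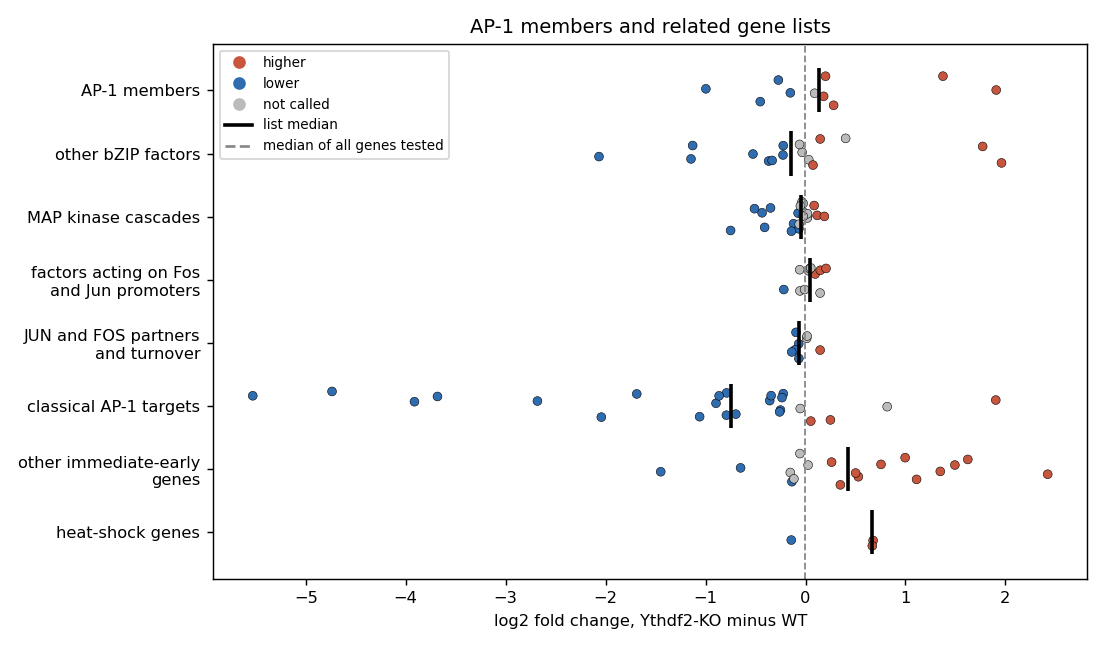
Log2 fold change (horizontal axis) of every tested gene in the AP-1 members and 7 related lists; colours give the call, black bars the list medians and the dashed line the median of all tested genes, -0.0053. Most AP-1 target genes lie to the left, with a median of -0.74, and most other immediate-early genes lie to the right, with a median of 0.43.

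Among 19 further bZIP genes that can pair with AP-1 or small MAF proteins, 16 were tested, of which 8 fell and 4 rose (median log2 fold change -0.14). Of all tested genes 25.8% fell and 24.1% rose, so the count that rose was near the background. Creb5, an ATF2 relative, fell 4.19-fold, from 6.73 ± 0.199 to 1.60 ± 0.169 CPM (SD, n = 3). Maf, which encodes a large MAF protein that does have an activation domain, rose 3.89-fold, from 5.49 ± 0.224 to 21.4 ± 0.288 CPM. Nfe2l2, which encodes NRF2, the oxidative-stress factor that pairs with small MAFs, fell 1.44-fold, from 332 ± 2.77 to 230 ± 4.05 CPM. The other 3 that rose, named after their values were seen, were Bach2 (3.42-fold, from 0.162 to 0.562 CPM), Bach1 (1.11-fold) and Atf7 (1.05-fold). Without WT replicate 1, without Ythdf2-KO replicate 2 or at an adjusted p under 0.01 the list had 2 rising genes instead of 4. The falling genes numbered 4 with the filter at a mean of 5 CPM and 5 at an adjusted p under 0.01, instead of 8. That filter took the falling genes Creb5, Batf, Batf3 and Mafa out of the test, and no falling gene that stayed in it lost its call.

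For the kinases and factors upstream of AP-1, all called changes were 1.68-fold or smaller. Of 22 tested MAP kinase cascade genes, 9 fell and 3 rose (median log2 fold change -0.043), and upper-quartile scaling changed these counts to 5 and 5. The 12 called of 22 were near the 49.9% called among all tested genes. Map2k6, which encodes a kinase that activates p38, fell 1.68-fold. Rps6ka5, which encodes MSK1, and Map3k1, which encodes a kinase upstream of JNK, fell 1.42- and 1.35-fold. The 3 that rose, named after their values were seen, were Rps6ka3, Braf and Mapk14, by 1.14-fold or less. Of 11 factors that act on the Fos and Jun promoters, Mrtfa fell 1.16-fold, and Mrtfb, Elk3 and Mef2c rose by 1.15-fold or less, 4 called of 11 against 49.9% of all tested genes. With upper-quartile factors 5 of the 11 rose, and without Ythdf2-KO replicate 3 or with offsets for GC content and length 2 fell. The serum response factor gene Srf, which is also in the immediate-early list, had 75.7 ± 1.94 CPM in the WT libraries, against 72.8 ± 2.96 CPM in Ythdf2-KO (SD, n = 3) and was not called (edgeR adjusted p = 0.159). The call for Mef2c was lost on leaving out any of 4 libraries (WT replicate 1 or 3, Ythdf2-KO replicate 2 or 3; edgeR adjusted p = 0.123 to 0.254), and without WT replicate 1 just 1 factor of this list rose. Among genes for partners and turnover of JUN and FOS proteins, the coactivator genes Crebbp and Ep300 were lower by 1.10-fold or less, and Fbxw7, a ubiquitin ligase subunit that targets JUN, was 1.11-fold higher. The call for Fbxw7 was lost without WT replicate 1 or 3 or Ythdf2-KO replicate 1 or 3 (edgeR adjusted p = 0.0511 to 0.0880).

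The 8 leukocyte markers summed to 18.3 to 19.96 CPM in the WT libraries, against 23.8 to 25.3 CPM in Ythdf2-KO, nearly all from Lyz2 and Laptm5. Of the 4 tested, these 2 rose, by 1.22- and 1.34-fold, and 1 fell. The 1 that fell was Adgre1, 6.17-fold lower without overlap, from 0.261 ± 0.124 to 0.0398 ± 0.0156 CPM (SD, n = 3). It rested on 10 to 22 counts a WT library and 2 to 4 a Ythdf2-KO library. Itgam was at 0 in every Ythdf2-KO library and in WT replicates 1 and 2, with 4 counts in WT replicate 3. Ptprc reached 1.07 CPM in Ythdf2-KO replicate 3 alone. Cd3e (8 counts) and, from the fibroblast list, Thy1 (25 counts) were also highest in that library, whereas Cd79a was not. The 4 fibroblast markers summed to 335 to 351 CPM in the WT libraries, against 504 to 514 CPM in Ythdf2-KO, nearly all from Pdgfrb. Pdgfrb rose 1.49-fold and Fap rose 5.16-fold, from 0.420 ± 0.155 to 2.18 ± 0.224 CPM (SD, n = 3), and the part of both sums in the AP-1 changes was not tested. The 3 endothelial markers stayed at or below 2.63 CPM and the 4 epithelial markers at or below 0.659 CPM in sum.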

How the data were processed

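RNA enriched for poly(A) was sequenced as paired ends from 3 WT and 3 Ythdf2-KO libraries. Per the submitters' processing notes, the authors used fastp 0.23.2, HISAT2 2.2.1 and featureCounts 2.0.6 with GRCm39. The deposited values are whole counts per gene symbol, not normalized; strand and multi-mapping settings are not stated in the sources used here. Columns were assigned by the labels. Counts were filtered with filterByExpr, scaled with TMM factors and tested with edgeR 4.0.16 (R 4.3.3; quasi-likelihood, robust, Benjamini-Hochberg over 17718 genes). SE is the log2 fold change divided by the root of F. Counting intervals are exact and cover counting error only. At most 0.0540 CPM equalled 3 counts. On simulated counts for this comparison over 17718 genes, recovery was 74% for 1.2-fold changes, 90% for 1.5-fold, 96% for 2-fold and 100% for 4-fold, with 17 false calls. The changed genes were 50 per fold, all above 1 CPM. They were far fewer than the genes called in the data, so these rates may not hold there. The members and lists were chosen with earlier results of these data known. Named genes were Ythdf2, all members and, per list, the 3 largest called changes reaching 1 CPM; others were chosen after their values were seen, and some listed genes are not reported here. Transcript lengths and motifs came from GENCODE vM21 (GRCm38), joined by symbol. Alternatives were upper-quartile and RLE factors, no filter on counts, a filter at 5 CPM, the replicate block, leaving out each library, DESeq2 1.42.0, limma-voom (limma 3.58.1), an adjusted p under 0.01, and GC and length offsets. The lists, family sums and other named genes were put through them after the data were seen.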

Additional observations from a re-analysis of the deposited data

How the results depend on the processing

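Under all 15 alternatives 5 members were called higher and 4 lower, except that a filter at a mean of 5 CPM removed Atf3, which was not called under the other 14. The log2 fold change ranged from 1.87 to 1.96 for Fos, 1.20 to 1.51 for Fosb, -0.48 to -0.40 for Fosl1 and -1.01 to -0.94 for Maff. The highest adjusted p of any of these 9 members was that of Fosb with the replicate block (edgeR, 0.0405). The same-numbered libraries did not deviate together (correlations of 0.040, -0.053 and -0.082 for replicates 1 to 3), so the numbers were not taken as pairs. With the replicate block 4132 genes were higher and 4409 lower. Of all calls, 48.3% were higher with TMM and 59.2% with upper-quartile factors. Leaving out each library gave 3937 to 4270 genes higher and 4158 to 4387 lower. The FOS-family ratio was 1.81 with lengths from the union of exons, 1.65 with no length scaling, and 1.76 to 1.86 on leaving out each library. The JUN-family ratio was 0.9999 and 1.02 with the other lengths, and 0.978 to 1.01 on leaving out each library. The call for Ep300 was lost with upper-quartile factors (edgeR adjusted p = 0.0545). Atf3 rested on 182 to 250 counts a library.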
